A study of Mus musculus with 12 samples.

Results

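The cytosolic ribosomal protein genes encode the proteins of the ribosome that translates nuclear-encoded mRNA. They were taken as the genes of the deposited table whose symbols follow the Rpl and Rps naming of the large and the small subunit, plus the stalk genes Rplp0 to Rplp2 and Rpsa, leaving out the S6 kinase genes and entries named as pseudogenes, with a mean of 10 CPM or more over the 12 libraries. CPM, the unit of level, is a gene's reads relative to the size of its library, with the authors' scaling between libraries. By symbol 88 of the 49585 listed genes matched and 83 reached that level, 48 of the large and 35 of the small subunit. The 5 that did not were Rpl10l at 0 CPM, Rps12l1 at 0.029 CPM, Rpl39l at 0.091 CPM, Rpl3l at 1.11 CPM and Rpl6l at 7.21 CPM. Just above the limit lay Rps3a3 at 15.6 CPM and Rps4l at 17.4 CPM, which with Rps3a2 are the 3 genes of the set that the GENCODE M21 annotation calls processed pseudogenes.

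The libraries were poly-A RNA-seq of whole lung from mice of the strain label Balb/cJ, in 4 groups of 3: wild type (WT) or RGS4 knockout (KO), each given phosphate-buffered saline (PBS) or the mould Aspergillus fumigatus (Af). The study was set up to ask what RGS4, a regulator that shortens G protein signalling, does in asthma. How the knockout was made, and the dose, schedule, age and sex, were not stated in the material at hand, nor was whether a library is 1 animal or a pool, so the p-values reflect only how far these libraries vary, which may be technical. Each library held between 20708884 and 30229446 recovered reads. Rgs4 itself stood at 25.8, 20.7 and 22.3 CPM in WT PBS, 48.8, 42.7 and 43.8 CPM in WT Af, 1.10, 1.003 and 0.571 CPM in KO PBS and 1.14, 1.47 and 0.848 CPM in KO Af, with no overlap of the genotypes. Library numbers run from 9 to 14 in KO and from 15 to 20 in WT, and within each genotype PBS has the lower numbers, so number and group cannot be told apart. Markers of lung tissue were present in each library, with summed levels of 13400 to 27100 CPM for 6 alveolar type 2 genes and 2480 to 5100 CPM for 8 endothelial genes. Libraries WT PBS 17 and KO Af 12 stood apart by squamous epithelial genes, with 540 and 288 CPM summed over 6 genes against 0.284 to 3.51 CPM in the other 10. The main KO results of the set are given with and without KO Af 12, while many KO values of single genes and lists include it.

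Each ribosome carries 1 copy of most of these proteins, so a cell makes them in near-equal numbers, and their mRNAs are among the most abundant in growing cells. Most vertebrate ribosomal protein mRNAs begin with a cytosine followed by a run of pyrimidines, the 5′ terminal oligopyrimidine tract, through which mTOR signalling and the protein LARP1 hold back or release their translation. Synthesis of the proteins, of ribosomal RNA and of assembly factors goes up when cells such as lymphocytes enter growth and division. Some members have close paralogs that can take their place in the ribosome, and free Rpl5 and Rpl11 bind Mdm2, the ubiquitin ligase that keeps p53 low.

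The start-site tract, which the choice of genes did not use, was looked for in the RefSeq promoter sequences (GRCm38.p6) as a C followed by at least 4 bases that are each C or T, on the gene's strand, beginning within 5 bases of the annotated start. Of the 60 member genes listed there 29 (48.3%) held such a tract, against 21.2% of all 27025 genes in it. With at least 6 further pyrimidines the shares were 38.3% and 7.64%, and with the tract exactly at the annotated start 21.7% and 3.01%. Windows of 30 bases, 10 before and 20 from the start, are shown first for 8 members with a tract exactly at the start, because they show the tract in its clearest form, with the tract in capitals.
Rps6: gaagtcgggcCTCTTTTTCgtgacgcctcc
Rpl35: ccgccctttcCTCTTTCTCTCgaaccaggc
Rps18: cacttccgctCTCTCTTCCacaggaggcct
Rps10: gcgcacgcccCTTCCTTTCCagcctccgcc
Rpl15: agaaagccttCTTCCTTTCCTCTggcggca
Rpl28: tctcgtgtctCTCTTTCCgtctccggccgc
Rpl38: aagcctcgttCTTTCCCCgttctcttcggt
Rps27: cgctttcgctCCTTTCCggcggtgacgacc
The next 4 are shown because the results below turn on them: Rps27l, Rps2 and Rpl22l1, whose tract lies a few bases inside the start, and Rpl41, whose window holds none.
Rps27l: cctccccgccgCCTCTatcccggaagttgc
Rps2: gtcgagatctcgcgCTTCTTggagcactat
Rpl22l1: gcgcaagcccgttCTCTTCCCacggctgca
Rpl41: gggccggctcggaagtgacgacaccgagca
The positions are chr4:86857348-86857377 (minus strand) for Rps6, chr2:39005112-39005141 (minus strand) for Rpl35, chr17:33955646-33955675 (minus strand) for Rps18, chr17:27635225-27635254 (minus strand) for Rps10, chr14:18270967-18270996 (minus strand) for Rpl15, chr7:4792955-4792984 (plus strand) for Rpl28, chr11:114668570-114668599 (plus strand) for Rpl38, chr3:90213629-90213658 (minus strand) for Rps27, chr9:66946076-66946105 (plus strand) for Rps27l (the first of its 2 annotated starts), chr17:24720053-24720082 (plus strand) for Rps2, chr3:28805498-28805527 (plus strand) for Rpl22l1 and chr10:128549149-128549178 (minus strand) for Rpl41. A match is a description of the letters only, since the annotated start need not be the start used in lung. The log2 difference between Af and PBS had a median of 0.81 in WT and 0.92 in KO over the 29 genes with a tract, and of 0.69 and 0.78 over the 31 without, and these differences of medians were not tested.

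Levels of single genes differed widely while their order was nearly the same in every library. Per kilobase of 1 reference transcript, Rplp1, a protein of the stalk that recruits translation factors, had the highest level at 1267 CPM per kb (834 to 2190 over the 12 libraries). Rps29 and Rps24 of the small subunit followed, each at 998.9 CPM per kb, and the ranges of these 3 genes over the libraries overlapped. The lowest were the pseudogene-annotated Rps3a3 at 19.6 and Rps4l at 22.1 CPM per kb, whose ranges also overlapped. Spearman's rho between any pair of libraries across the 83 genes lay between 0.928 and 0.997, as a description, since genes are not independent replicates. After removing each gene's mean, 1 principal component carried 97% of the variance of the set over the 12 libraries, against 68.4% for all 16126 genes that were tested.

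Summed over the 83 genes, the level was higher in every Af library than in every PBS library. The sums were 19972, 19944 and 19734 CPM in WT PBS (19883 ± 130, SD, n = 3) and 34419, 32588 and 32145 CPM in WT Af (33051 ± 1206, SD, n = 3). In KO they were 21625, 22275 and 24744 CPM under PBS (22881 ± 1645, SD, n = 3) and 53365, 32138 and 38654 CPM under Af (41386 ± 10874, SD, n = 3). The 3 WT PBS libraries were close to one another, and library KO Af 12, the first of its group, was far above the rest. As a share of reads the sums ran from 1.97% to 2.51% over the 6 PBS libraries and from 3.22% to 5.08% over the 6 Af libraries. The ratio of Af to PBS means was 1.66 in WT and 1.81 in KO, and 1.55 in KO without KO Af 12. The large subunit genes summed to 1.42 to 1.46 times the small subunit genes in the PBS libraries and to 1.28 to 1.38 times in the Af libraries, so the exposures did not overlap in this ratio either. In whole lung, fewer cells of a type and less RNA per cell cannot be told apart.

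**Figure D1:**
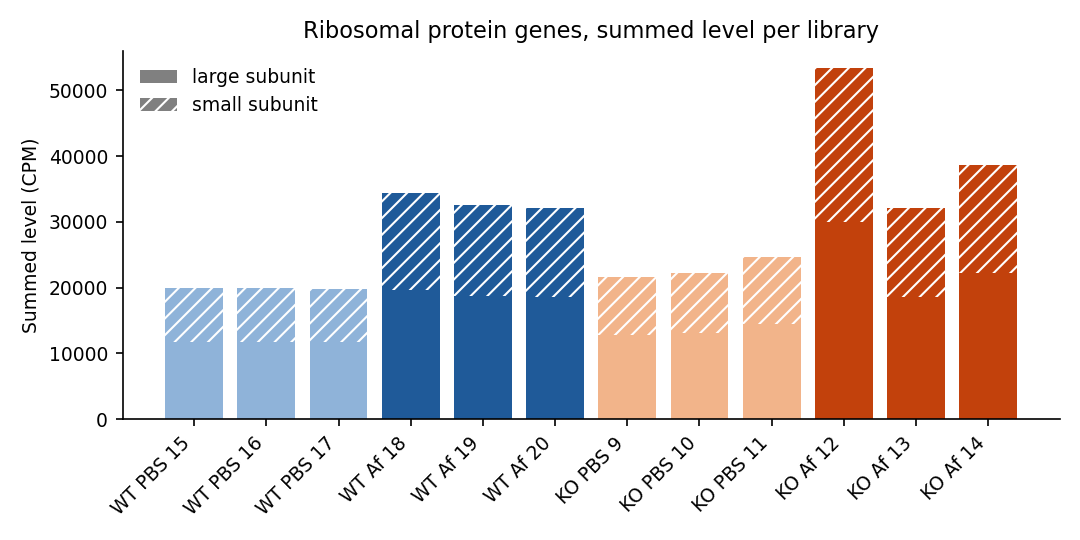
Summed CPM of the 48 large subunit (plain) and 35 small subunit (hatched) ribosomal protein genes in each library, coloured by group. The 6 Af libraries reach from 32138 to 53365 CPM, above the 6 PBS libraries at 19734 to 24744 CPM, and KO Af 12 is the highest.

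With Af, nearly every ribosomal protein gene was higher in both genotypes. In WT 80 of 83 rose by limma (Benjamini-Hochberg adjusted p under 0.05 over 16126 genes), where 26.2% of all tested genes rose and 25.6% fell. In KO 81 of 83 rose, where 28.7% of all tested genes rose and 29.2% fell. The log2 difference was above 0 for all 83 in both genotypes, so 0 fell by limma at any unadjusted p, and edgeR and DESeq2 each called 80 higher in WT and 82 in KO and 0 lower. The median log2 difference over the members was 0.73 in WT and 0.82 in KO, against -0.02 in both over all tested genes, and the members ranged from 0.10 to 1.36 in WT and from 0.28 to 1.63 in KO. In WT, 82 members had all 3 Af libraries above all 3 PBS libraries (32.7% of all tested genes), and in KO 79 did (31.1%). By subunit the median was 0.69 for large and 0.78 for small in WT, and 0.79 and 0.90 in KO. Without KO Af 12 the KO median was 0.62 and 79 members rose, where 29.4% of all tested genes did.

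The stalk proteins of the large subunit rose in both genotypes. Rplp0 rose by more than the set as a whole, though that call was lost when some single libraries were left out. Rplp0, the base of the stalk, stood at 332, 332 and 339 CPM in WT PBS and 719, 697 and 678 CPM in WT Af, and at 355, 378 and 429 and 968, 692 and 802 CPM in KO. The exposures did not overlap in either genotype. Its log2 difference was 1.06 ± 0.12 (SE, adjusted p = 2.94e-05) in WT and 1.07 ± 0.12 (SE, adjusted p = 1.9e-05) in KO. Its partners Rplp1 and Rplp2 rose by 0.76 and 0.81 in WT and by 0.80 and 0.79 in KO. Rpsa, a small subunit protein also known as the laminin receptor precursor, had the highest mean level before any correction for length and stood at 591, 616 and 623 CPM in WT PBS, 1225, 1261 and 1219.5 CPM in WT Af, 653, 712 and 771 CPM in KO PBS and 1867, 1176 and 1400.3 CPM in KO Af. Every Af library was above every PBS library, with a log2 difference of 1.02 ± 0.15 (SE, adjusted p = 0.000176) in WT and 1.03 ± 0.15 (SE, adjusted p = 0.000117) in KO.

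Members known for roles in signalling or disease also rose with Af. Without adjustment for transcript length Rpl5 and Rpl11 rose by less than the set as a whole. Rps6, the small subunit protein that the S6 kinases phosphorylate, stood at 451, 453 and 442 CPM in WT PBS and 853, 837 and 818 CPM in WT Af and rose by 0.90 ± 0.14 (SE, adjusted p = 0.000331). In KO it stood at 487, 502 and 539 CPM under PBS and 1331, 824 and 999 CPM under Af and rose by 1.02 ± 0.14 (SE, adjusted p = 0.000102). Rpl5 and Rpl11, the pair that binds Mdm2, rose by 0.54 and 0.62 in WT and by 0.62 and 0.65 in KO. After adjustment for transcript length, described with the length classes, they stood at 0.45 and 0.33 in WT and at 0.53 and 0.28 in KO. The medians of the set were then 0.47 in WT and 0.45 in KO. Rpl13a, which leaves the ribosome in interferon-treated myeloid cells to silence inflammatory mRNAs, rose by 0.82 in WT and 0.92 in KO. Rps3, at the entry channel for mRNA, rose by 0.74 and 0.90, and Rpl38, which is needed for translation of Hox mRNAs in the mouse embryo, by 0.89 and 1.01. Rps19, mutated in Diamond-Blackfan anaemia, stood at 219, 211 and 209 CPM in WT PBS and 358, 340.1 and 308 CPM in WT Af, without overlap, and rose by 0.65 ± 0.19 (SE, adjusted p = 0.0141) in WT and 0.78 ± 0.19 (SE, adjusted p = 0.00457) in KO.

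The members with the largest differences were Rps2, Rps27l, Rpl41 and Rps26 in WT and Rps27l, Rps2, Rpl41 and Rps12 in KO. Rps2, a small subunit protein near the entry of the mRNA, stood at 177, 181 and 185 CPM in WT PBS and 424, 486 and 487 CPM in WT Af, and at 182, 189.9 and 203 and 555, 459.8 and 529.9 CPM in KO. Every Af library was above every PBS library, and the log2 difference was 1.36 ± 0.09 (SE, adjusted p = 1.05e-06) in WT and 1.42 ± 0.09 (SE, adjusted p = 4.67e-07) in KO. The table also holds a processed copy, Rps2-ps10, at a mean of 465.5 CPM, so that entries named as Rps2 pseudogenes summed to 145% of Rps2. With those entries added to Rps2 the log2 difference was 1.33 in WT and 1.41 in KO. Rpl41, whose product is among the shortest known proteins, stood at 247, 242 and 236 CPM in WT PBS, 588, 534 and 576 CPM in WT Af, 239, 259 and 283 CPM in KO PBS and 934, 489.7 and 665 CPM in KO Af. It rose by 1.22 ± 0.18 (SE, adjusted p = 0.00018) in WT and by 1.37 ± 0.18 (SE, adjusted p = 5.95e-05) in KO, without overlap. Rps26, which contacts the mRNA upstream of the start codon, rose by 1.09 in WT and Rps12 by 1.184 in KO.

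At the other end, 3 members did not pass the test in WT and 2 did not in KO. The 4 groups shared 1 estimate of the spread, so the variable library KO Af 12 also entered the WT errors. Without it 82 members rose in WT, and for that fit only the count of members is given. Rps4l, annotated as a transcribed processed pseudogene, stood at 14.4, 20.4 and 15.7 CPM in WT PBS, 19.0, 15.5 and 19.5 CPM in WT Af, 17.3, 10.4 and 20.2 CPM in KO PBS and 19.3, 16.5 and 20.9 CPM in KO Af. The 4 groups overlapped, and its log2 differences were 0.10 ± 0.22 (SE, adjusted p = 0.713) in WT and 0.28 ± 0.22 (SE, adjusted p = 0.281) in KO. Rpl21 of the large subunit stood at 374, 365 and 358 CPM in WT PBS, 452, 422 and 416 CPM in WT Af, 386, 389 and 420.0 CPM in KO PBS and 642, 408 and 476 CPM in KO Af. Its Af libraries were above its PBS libraries in WT but overlapped with them in KO, and the differences were 0.23 ± 0.13 (SE, adjusted p = 0.166) in WT and 0.33 ± 0.13 (SE, adjusted p = 0.0547) in KO. Rpl22, an RNA-binding protein needed for the development of some T cells, was at 0.32 ± 0.13 (SE, adjusted p = 0.0577) in WT and rose by 0.40 ± 0.13 (SE, adjusted p = 0.0207) in KO. Among the called members with small differences were Rpl30, Rpl10 and Rpl29 in WT (0.45, 0.45 and 0.47) and Rpl22, Rpl30 and Rps27 in KO (0.40, 0.49 and 0.50). Without KO Af 12 these 3 KO differences were 0.22, 0.30 and 0.23. Some of the calls passed the threshold by little. In WT the call of Rps27 was lost without any 1 of its 6 libraries (adjusted p from 0.0627 to 0.106, limma), while its log2 difference stayed at 0.44 to 0.53. That of Rpl10 was lost without any but WT PBS 15 (0.0503 to 0.0725) at log2 differences of 0.41 to 0.47, and that of Rpl30 without WT Af 18 (0.052) at 0.41. In KO the call of Rps27 was lost without KO PBS 9 or 10 (adjusted p = 0.0944 and 0.0838, limma) at 0.46 and 0.48, and without KO Af 12 (0.0586) at 0.23. That of Rpl22 was lost without KO PBS 9 or 10 (0.0618 and 0.0503) at 0.38 and 0.41. After adjustment for transcript length, described with the length classes, Rpl10 and Rpl29 stood at 0.16 and 0.18 in WT (adjusted p = 0.117 and 0.061). Rpl35a, beside entries named as its pseudogenes that summed to 49.4% of its level, rose by 0.62 in WT, and with those entries added stood at 0.36 (adjusted p = 0.306, limma). For 14 members, Rpl13a and Rpl5 among them, exons overlap those of another tested gene, and strand use in counting was not stated.

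**Figure D2:**
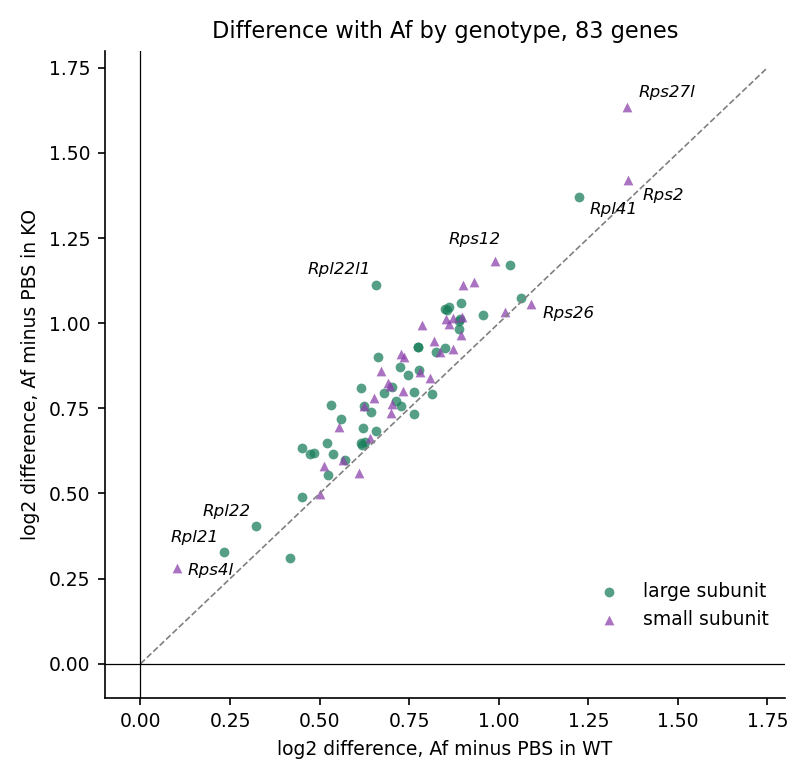
Log2 difference between Af and PBS of each of the 83 ribosomal protein genes in WT (x axis) and in KO (y axis), circles for the large and triangles for the small subunit. All points lie above 0 on both axes, with Rps27l, Rps2 and Rpl41 at the upper end and Rps4l, Rpl21 and Rpl22 at the lower end, and the dashed line marks equal differences.

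Which members departed from the set was asked by subtracting, in each library, the median log2 level of the 83 genes and averaging the Af differences over both genotypes. By this measure 7 members were higher than the set and 24 lower (limma, adjusted p under 0.05), against 5.1% and 79.6% of all tested genes, most of which did not move with the set. The highest were Rps27l at 0.64 ± 0.10 (log2, SE, adjusted p = 4.36e-05), Rps2 at 0.54, Rpl41 at 0.44 and Rpl35, near the exit of the peptide tunnel, at 0.25. Among the lowest were Rps4l at -0.66 ± 0.17 (adjusted p = 0.00268), Rpl21 at -0.57 and Rpl22 at -0.49. The remaining 3 above the set were Rps12, Rps26 and Rplp0, at 0.23, 0.22 and 0.21 (adjusted p = 0.0248, 0.0311 and 0.0319, limma). The lower ones included Rpl3, at the peptidyl transferase centre, at -0.30, Rpl5 at -0.28, Rpl11 at -0.22, Rpl10 at -0.31 and Rps4x at -0.31. The 7 genes named here at the extremes, Rps27l, Rps2, Rpl41, Rpl35, Rps4l, Rpl21 and Rpl22, passed the test in each of 24 settings. The count above the set was 4 when WT PBS 17, WT Af 18, WT Af 20 or KO PBS 10 was left out, and Rps12, Rps26 and Rplp0 were then not called.

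Of 6 paralog pairs tested, 4 shifted in their proportions with Af and 2 did not pass the test. For each pair the log2 ratio of the 2 genes was compared between Af and PBS by an exact permutation test, 2-sided, that exchanged libraries within each genotype (400 arrangements, smallest possible p 0.005) and was adjusted over the 6 pairs tested. Rps27l, a p53-inducible copy of Rps27, stood at 25.2, 19.8 and 22.2 CPM in WT PBS, 62.4, 56.6 and 55.2 CPM in WT Af, 20.9, 22.6 and 24.4 CPM in KO PBS and 107, 52.1 and 64.4 CPM in KO Af. In reads it made up 11.3%, 8.90% and 10.1% of the level of Rps27 in WT PBS and 18.3%, 18.8% and 18.2% in WT Af, and in KO 8.17%, 8.59% and 8.42% under PBS and 19.5%, 18.3% and 18.4% under Af. The exposures did not overlap, and the log2 ratio was 1.02 higher with Af (adjusted exact p = 0.01). Rps27 itself rose by 0.50 ± 0.18 (SE, adjusted p = 0.0365) in WT and 0.50 ± 0.18 (SE, adjusted p = 0.034) in KO, from 223, 223 and 220.5 CPM in WT PBS to 341, 300.4 and 303 CPM in WT Af.

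Rpl22l1, the paralog that rises when Rpl22 is lost, stood at 19.9, 20.3 and 21.02 CPM in WT PBS, 32.0, 34.0 and 31.4 CPM in WT Af, 22.1, 18.3 and 24.97 CPM in KO PBS and 77.6, 34.2 and 39.9 CPM in KO Af. It rose by 0.66 ± 0.23 (SE, adjusted p = 0.0337) in WT and 1.11 ± 0.23 (SE, adjusted p = 0.0017) in KO, and by 0.76 in KO without KO Af 12. The WT call was lost without any 1 of the 6 WT libraries (adjusted p from 0.0633 to 0.0864, limma), while the log2 difference stayed at 0.62 to 0.68. Relative to Rpl22, Rpl22l1 was at 19.3% to 21.7% in WT PBS, 24.2% to 29.0% in WT Af, 16.6% to 22.2% in KO PBS and 28.6% to 41.8% in KO Af. The log2 ratio was 0.54 higher with Af (adjusted exact p = 0.01), and 0.45 to 0.58 higher with each library left out in turn. Rpl36al, a gene outside the symbol rule whose product is nearly identical to Rpl36a, was at 67.9% to 76.6% of Rpl36a in the PBS libraries and 87.3% to 91.8% in the Af libraries, a log2 ratio 0.30 higher (adjusted exact p = 0.01). Rpl7l1, a nucleolar relative of Rpl7, rose by 0.66 in WT and 0.90 in KO, and its ratio to Rpl7 was 0.15 higher (adjusted exact p = 0.17). Without KO Af 12 that ratio was 0.23 higher (adjusted exact p = 0.036). The ratio of Rps4l to the X-linked Rps4x differed by -0.35 with Af (adjusted exact p = 0.108), and without KO PBS 10 by -0.48 (adjusted exact p = 0.024).

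Rpl3l, the form of Rpl3 used in heart and skeletal muscle, lay under the level limit, at 0.621, 1.13 and 2.83 CPM in WT PBS, 0.576, 0.622 and 0.300 CPM in WT Af, 1.42, 0.929 and 1.58 CPM in KO PBS and 2.63, 0.230 and 0.463 CPM in KO Af. Its log2 ratio to Rpl3 differed by -1.74 with Af (adjusted exact p = 0.0225). Without WT Af 18 the adjusted exact p was 0.0525, and without WT Af 20, KO PBS 9 or KO PBS 11 it was 0.06. Muscle genes moved with it: 6 cardiac genes summed to 825 to 1540 CPM in the PBS libraries and 118 to 527 CPM in the Af libraries. Over 7 skeletal muscle genes, a list chosen after the data were seen, WT PBS 17 and KO Af 12 had 411 and 447 CPM and the other libraries 6.22 to 87.4 CPM, and these are the 2 libraries with the highest Rpl3l. The part of muscle RNA in the ratio was not tested. Of the testis forms, Rpl39l stood at up to 0.295 CPM and Rpl10l at 0 in all 12 libraries, which allows up to 0.0983 to 0.144 CPM by counting error alone.

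**Figure D3:**
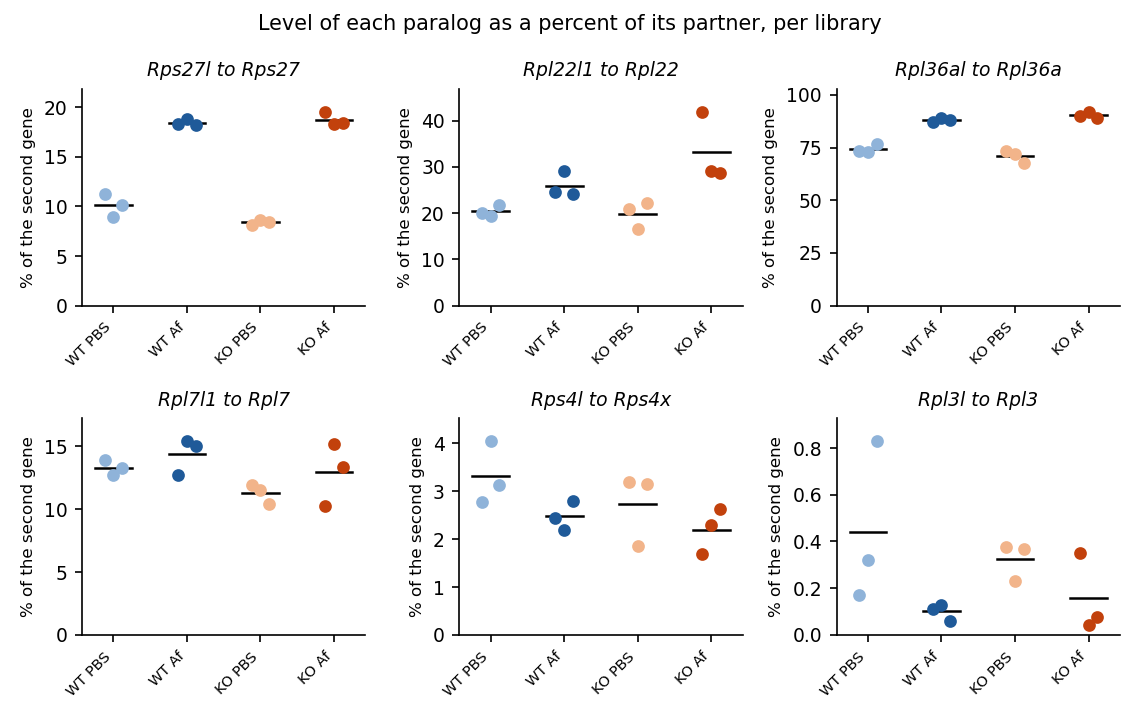
Level of 6 paralogs as a percent of their partner, in reads without correction for length, per library (points) with group means (lines). For Rps27l, Rpl22l1 and Rpl36al all 6 Af libraries lie above all 6 PBS libraries, and for Rpl3l the highest value is 0.828%, in WT PBS 17.

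Between genotypes no member passed the test. Under PBS the 83 genes had a median log2 difference between KO and WT of 0.21, from -0.11 for Rps4l to 0.34 for Rplp2, and 81 were above 0. By limma 2 members, Rplp2 among them, and 2797 of all 16126 tested genes had an unadjusted p under 0.05. After adjustment 0 members were called, against 3.55% of all tested genes. edgeR and DESeq2 also called 0. For 71 members all 3 KO libraries lay above all 3 WT libraries (17.4% of all tested genes), and for Rpl7l1 all lay below (15.7%). Rplp2 stood at 180.5, 169 and 184 CPM in WT PBS and 208, 212 and 257 CPM in KO PBS, a log2 difference of 0.34 ± 0.15 (SE, adjusted p = 0.269). Its KO values were above its WT values, by less than the test resolves. The summed level was 1.15 times higher in KO, KO PBS 11 was the highest of the 3, and the median without it was 0.15. In these libraries 13 T cell genes summed to 247 to 315 CPM in KO PBS against 122 to 218 CPM in WT PBS. For 7 NK cell genes the sums were 55.0 to 65.7 against 19.4 to 36.7 CPM, and for 9 neutrophil genes 284 to 524 against 138 to 223 CPM. Sums of 8 dendritic cell genes (212 to 249 against 179 to 208 CPM) and 8 endothelial genes (4910 to 5100 against 3640 to 4360 CPM) were also higher in KO. Those of 6 ciliated cell genes were lower (169 to 189 against 230 to 241 CPM). The other cell type lists, among them monocytes and macrophages, B and plasma cells and eosinophils, overlapped. The part of cell composition in the difference was not tested.

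Under Af the median log2 difference between KO and WT was 0.30 with KO Af 12 and 0.09 without it, and 0.48 without KO Af 13. By limma 18 members and 1807 of all 16126 tested genes had an unadjusted p under 0.05. After adjustment 0 members were called, against 0.0868% of all tested genes, and edgeR and DESeq2 called 0. For 6 members, among them Rpl3, Rpl4, Rpl22l1, Rpl23 and Rpl39, all KO libraries lay above all WT libraries (7.66% of all tested genes). Rpl39, which lines the exit tunnel, stood at 131, 132 and 124 CPM in WT Af and 263, 139 and 164 CPM in KO Af, and its log2 difference was 0.49 ± 0.18 (SE, adjusted p = 0.396), and 0.22 without KO Af 12. Of the 83 members 82 had their highest value in KO Af 12. The difference between the Af responses of the genotypes had a median of 0.11, -0.11 without KO Af 12 and 0.28 without KO Af 13. Without KO Af 12 it was above 0 for 4 of the 83 members. With all libraries limma called 0 members in this difference, against 0.0062% of all tested genes, and edgeR and DESeq2 called 0. By limma 0 members and 1750 of all 16126 tested genes had an unadjusted p under 0.05. Fits that weighted libraries by their quality, in which KO Af 12 had a weight of 0.12, called 6 members higher in KO under PBS, against 8.63% of all tested genes, and 30 under Af, against 7.37%. A fit of the 2 PBS groups alone also called 6 members, against 3.38% of all tested genes, 3 of them (Rpl12, Rpl32 and Rps16) shared with the weighted fit.

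**Figure D4:**
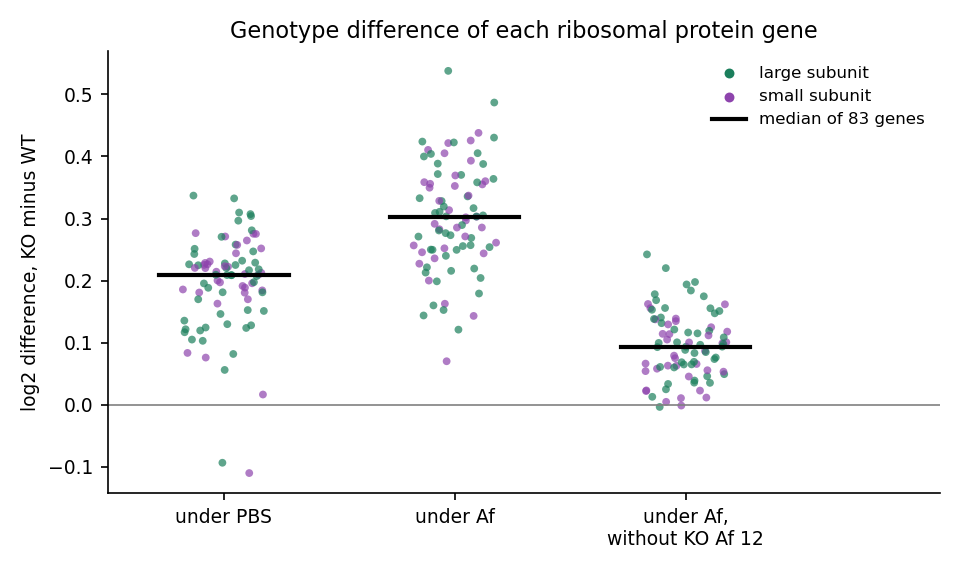
Log2 difference between KO and WT of each ribosomal protein gene under PBS, under Af, and under Af without library KO Af 12, with the median of the 83 genes as a bar. The medians are 0.21, 0.30 and 0.09.

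Among genes outside the set, transcript length moved with these differences. The ribosomal protein mRNAs are short, with a median of 774 bases for 1 reference transcript per gene against 2617 bases for the other tested genes. In KO Af 12 the 191 other protein-coding genes of 600 bases or fewer had a median log2 deviation from their 12-library means of 0.771, and those over 4000 bases -0.386, while the members were at 0.939. In the other 5 Af libraries the short genes were at 0.032 to 0.197 and the members at 0.196 to 0.471. In the 3 WT PBS libraries the short genes were at -0.299 to -0.254 and the members at -0.494 to -0.489. After each library was adjusted for the trend of level on transcript length over other genes, a setting chosen after the data were seen, the median Af difference of the members was 0.47 in WT and 0.45 in KO. In that setting 75 members rose in WT (26.1% of all tested genes) and 70 in KO (28.7%), and without KO Af 12 the KO median was 0.37 with 65 members (29.4%). The log2 difference then stayed above 0 for 81 members in WT and 79 in KO. Rpl21 stood at -0.04 in WT and -0.02 in KO and Rps4l at -0.18 and -0.10, and Rpl22 and Rps27 were below 0 in KO. With GC content added or without KO Af 12, Rpl30 was also below 0 in KO. The median genotype difference was then 0.16 under PBS, with Rps29 and Rpl36 called (2.65% of all tested genes were), and 0.15 under Af, with 0 called by limma. The adjustment rests on 1 reference transcript per gene, which need not be the one used in lung. For Rps15a and Rps20 it had 5130 and 3706 bases, and the WT differences of these genes went from 0.9 and 0.62 to 1.08 and 0.72. What gives rise to the length trend was not tested.

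**Figure D5:**
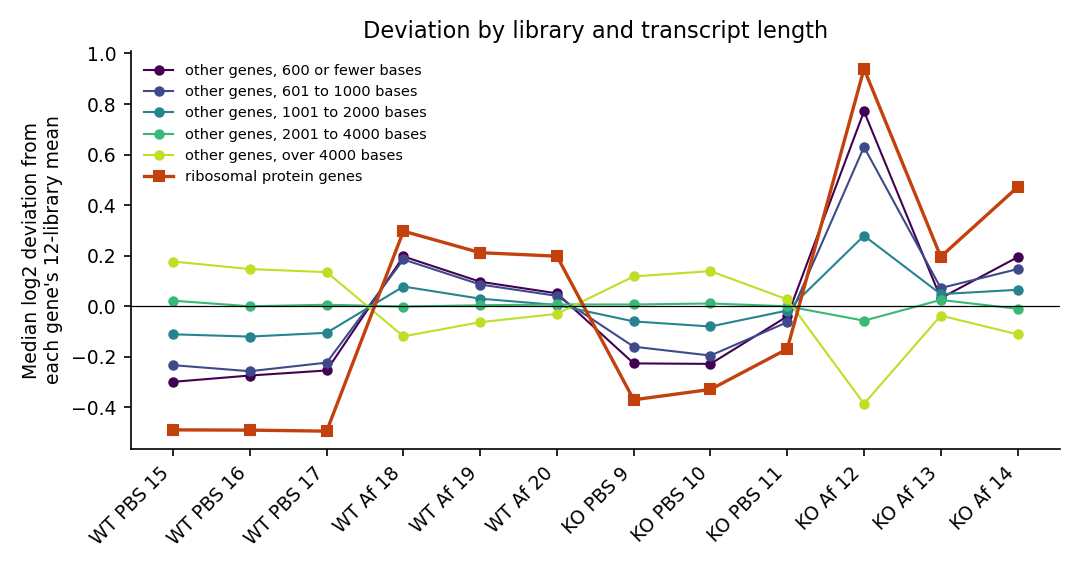
Median log2 deviation from each gene's 12-library mean, per library, for other protein-coding genes in 5 classes of transcript length and for the ribosomal protein genes (squares). Short genes and ribosomal protein genes are highest in KO Af 12, at 0.771 and 0.939, where genes over 4000 bases are lowest at -0.386.

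Other genes of protein synthesis were described from lists, whose counts stand beside the 26.2% of all tested genes that rose and 25.6% that fell in WT, and the 28.7% and 29.2% in KO. Among further ribosome genes Fau, made as a ubiquitin-like fusion, Rack1 and Rpl36al rose in both genotypes, by 0.61, 0.72 and 0.96 in WT. Adjusted for transcript length, Fau stood at 0.09 in KO (adjusted p = 0.368, limma), and its KO call was also lost in the length-adjusted fits with GC content added or without KO Af 12. Of 19 elongation factors and other mRNAs with a known tract 13 rose in WT and 15 in KO, with Npm1, a nucleolar chaperone, at 1.15 and 1.33 and Eef1g, a subunit of the elongation factor 1 complex, at 0.73 and 0.84. Eef2, the translocase, was at 0.06 and -0.06. Of 30 initiation factors 24 rose in WT and 27 in KO, among them Eif4a1, the helicase, by 0.998 and 1.44 and Eif5a, which relieves stalled peptide bonds, by 0.99 and 1.10. Of 49 ribosome assembly genes tested 41 rose in each genotype, and 2 fell in WT. Nop58 and Fbl, proteins of the particles that methylate ribosomal RNA, rose by 1.57 and 1.16 in WT and by 1.96 and 1.34 in KO. Of 20 genes for RNA polymerase I transcription 8 rose and 1 fell in WT, and 10 rose and 1 fell in KO, with Polr1e at 0.74 and 0.97.

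Genes listed for the control of translation did not move together. Of 22 tested, 2 rose and 3 fell in WT and 4 rose and 6 fell in KO, with a median of -0.03 and -0.10, against 26.2% higher and 25.6% lower of all tested genes in WT and 28.7% and 29.2% in KO. Myc, which drives ribosome production, rose by 1.89 ± 0.17 (SE, adjusted p = 6.95e-06, limma) in WT and by 2.21 in KO, and Mdm2 by 0.92 and 0.80. Tsc2, a brake on mTOR, fell by 0.43 in WT and by 0.66 in KO, and Mknk2, a kinase of the cap-binding factor, fell by 0.51 and by 0.42. Between genotypes limma called 0 of the 144 genes in these 6 lists under PBS, under Af or in the difference of responses. Of them 15, 26 and 14 had an unadjusted p under 0.05 by limma, where 2797, 1807 and 1750 of all 16126 tested genes did. edgeR called 0 each time, and DESeq2 called 3 (Eif4g2 and Rexo4 lower, Hnrnpa1 higher in KO), 2 (Ubtf lower, Npm1 higher) and 1 (Eif4a1). Genes of the cell cycle were also higher with Af, 20 of 20 in each genotype. They summed to 242 to 337 CPM in the PBS libraries and 1010 to 1210 CPM in the Af libraries. In KO Af 12, where the ribosomal protein genes were highest, the cell cycle genes summed to 1010 CPM, against 1150 and 1100 CPM in KO Af 13 and 14. Of 11 monocyte and macrophage genes 9 rose and 1, the lysozyme gene Lyz2, fell in each genotype, and their summed level went from 4330 to 7250 CPM in WT PBS to 3460 to 4170 CPM in WT Af and from 5180 to 5280 CPM in KO PBS to 3580 to 5020 CPM in KO Af. Of 5 club cell genes 5 fell in WT and 4 in KO. The part of cell composition in the ribosomal protein differences was not tested.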

How the data were processed

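Values came from 1 deposited table of 12 mouse lung libraries. The submitters' processing notes name RSEM 1.3.0, STAR 2.7.6a and cutadapt 1.18, without their settings. The deposited signal per gene is CPM divided by a trimmed mean of M-values (TMM) factor, as the file is named, and all values were whole multiples of 1 read (100% at a tolerance of 0.01), so reads were recovered. Genes at 1 CPM or more in 3 libraries (16126) were tested on log2(CPM + 0.5), which understates changes of low genes, with limma 3.58.1 (R 4.3.3, mean-variance trend, 4 group means, 8 residual degrees of freedom, Benjamini-Hochberg adjusted p under 0.05). edgeR 4.0.16 and DESeq2 1.42.0 on recovered reads were alternatives. On simulated counts for Af against PBS in WT (16126 genes, 100 changed per fold) the test recovered 37% at 1.5-fold and 87% at 2-fold. In the data far more genes were called in this comparison (26.2% higher, 25.6% lower). The simulation also held no shift shared by the genes of a library, so these shares need not hold for the data. Counts can be split between near-identical copies. The closest replicates had a chi-square of 11.3 for each degree of freedom over their reads, so no library was a copy. Genes and lists were chosen with earlier results of these data known. Named were, per comparison, the 4 highest and 4 lowest called members, extremes of level, paralog pairs, members with known roles, and up to 4 genes with the smallest p per list. Named outside that rule, after their values were seen, were Eef2, Lyz2, Rpl4, Rpl12, Rpl23, Rpl32, Rpl35a, Rpl36, Rps16, Rps24, Rps29, Rps3a2, the DESeq2 calls Eif4g2, Rexo4 and Ubtf and, for their start-site tracts, Rpl15, Rpl28, Rps10 and Rps18. Some genes are not reported here.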

Additional observations from a re-analysis of the deposited data

How the results depend on the processing

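No paired analysis was possible because no library number occurs in more than 1 group. Leaving out each library in turn kept 74 to 82 members higher with Af in WT and 77 to 82 in KO, and each median Af difference stayed above 0. With all libraries 26.2% of all tested genes rose in WT and 28.7% in KO. In WT the median was 0.67 when libraries were centred on genes outside the set, 0.47 after length adjustment, chosen like all length settings after the data were seen, with or without KO Af 12, and 0.49 after length and GC adjustment. In KO it was 0.45 with either adjustment and 0.37 without KO Af 12 as well. Between genotypes under PBS, limma with library weights called 6 members higher in KO (8.63% of all tested genes) and the 2 groups alone 6 (3.38%). Length adjustment called 2 (2.65%), with GC 2, and length adjustment without KO Af 12 called 7. For the last 2 fits only the counts of members are given. Under Af, library weights gave 30 members (7.37% of all tested genes), and leaving out each library gave 0 to 1 (Rpl36, without KO Af 13). With all libraries and no weights 0.0868% of all tested genes were called under Af. For the difference of responses the median ran from -0.11 to 0.28 with each library left out, and was -0.09 without WT PBS 17 and KO Af 12 and -0.09 after length adjustment without KO Af 12. Members above the set numbered 4 without the filter on low values, 14 after length adjustment, 16 without KO Af 12 as well, and 4 to 8 with each library left out. In the main fit they numbered 7, against 5.1% of all tested genes, and for the other settings only counts of members are given. Members below the set numbered 24 in the main fit (79.6% of all tested genes), 16 to 29 with each library left out and 16 to 35 in the other settings. The paralog differences ran over left-out libraries from 0.09 to 0.23 for Rpl7l1, from -2.17 to -1.42 for Rpl3l and from -0.48 to -0.26 for Rps4l. The stricter tract searches gave 38.3% against 7.64% and 21.7% against 3.01%. In KO with Af, length adjustment gave Rpl22 -0.11 and Rps27 -0.08, length and GC adjustment gave Rpl22 -0.19, Rpl30 -0.05 and Rps27 -0.06, and length adjustment without KO Af 12 gave Rpl22 -0.12, Rpl30 -0.01 and Rps27 -0.17. Beyond these fits, whose construction removes a shared trend, the causes were not tested. Of 113 named gene results 96 kept their call in every setting. Whole-lung libraries, 3 per group, limit what can be resolved.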

Other observations

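The mRNAs for proteins of the mitochondrial ribosome, a separate set translated in the cytosol and imported, were also measured. Of 78 genes 61 rose in WT and 71 in KO, against 26.2% and 28.7% of all tested genes, with medians of 0.46 and 0.64 on the log2 scale, against 0.73 and 0.82 for the cytosolic ribosomal protein genes and -0.02 for all tested genes in each genotype. Of 78 tested nuclear genes for oxidative phosphorylation subunits 35 rose and 2 fell in WT, and 50 rose and 4 fell in KO. Of 15 tested genes of the mitochondrial genome 1 fell in WT and 3 in KO, with medians of -0.19 and -0.32. Of all tested genes 25.6% fell in WT and 29.2% in KO. In KO Af 12 the mitochondrial ribosome genes had a median deviation of 0.725 from their 12-library means, against 0.189 and 0.236 in the other 2 KO Af libraries.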
